A study of Mus musculus with 6 samples.

Results

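Tubulins are the subunits of microtubules, and 10 genes for them are described here across 6 RNA libraries of 4T1 cells. The genes were chosen by symbol, as the rows of the deposited tables whose identifier belongs to a listed alpha, beta or gamma tubulin in GENCODE M21, and they are 10 of the 56748 genes in each table. There are 4 alpha tubulins (Tuba1a, Tuba1b, Tuba1c and Tuba4a), 5 beta tubulins (Tubb2a, Tubb2b, Tubb4b, Tubb5 and Tubb6) and 1 gamma tubulin (Tubg1). 4T1 is a mouse mammary carcinoma line, labelled WT for genotype in all 6 samples. The study compared 3 control samples with 3 samples given a gold, molybdenum disulfide and bismuth sulfide heterojunction (Au/MoS2/Bi2S3) and near-infrared light (NIR), a material made for photothermal and photodynamic tumour treatment. Treated cells grew for 24 h, were kept overnight with 125 µg/mL of the particles, were irradiated for 8 min and were washed 24 h later. Both groups are labelled as collected at 48 h, all 6 samples carry the same batch label, and cells given only particles or only light were not analysed here. The labels describe RNA pooled from 3 individuals and do not say whether the libraries of a group came from separate cultures, so p-values measure only the spread between these libraries, which may be technical.

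Microtubules are hollow polymers of alpha and beta tubulin dimers that form the mitotic spindle and carry cargo through the cell. Gamma tubulin sits in a ring complex that starts their growth, and new alpha and beta chains are folded by prefoldin, the TRiC chaperonin and dedicated cofactors. Tubulin mRNA is also regulated by the tubulin protein itself: when free subunits are in excess, TTC5 recognises the start of a nascent alpha or beta chain on the ribosome and, through SCAPER, brings in the CCR4-NOT deadenylase, which leads to decay of the mRNA.

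The start of the coding sequence is shown because it encodes the stretch that TTC5 reads on nascent alpha and beta chains. The lines give the first 30 coding bases of GENCODE M21 transcripts (GRCm38), 5′ to 3′, with codons 2 to 4 in capitals.
Tuba1a: atgCGTGAGTGCatctccatccatgttggc
Tuba1b: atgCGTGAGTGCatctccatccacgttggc
Tuba1c: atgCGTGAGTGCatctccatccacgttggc
Tuba4a: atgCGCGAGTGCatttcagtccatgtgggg
Tubb2a: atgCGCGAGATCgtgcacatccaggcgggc
Tubb2b: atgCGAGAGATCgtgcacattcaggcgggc
Tubb4b: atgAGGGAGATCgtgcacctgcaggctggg
Tubb5: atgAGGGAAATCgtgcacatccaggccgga
Tubg1: atgCCGAGAGAAatcatcaccctacagttg
The alpha genes Tuba1a, Tuba1b and Tuba1c had the same codons 2 to 4. The other genes shown each had a run of letters of their own there, and Tubb6 is not shown. Within a class these letters change no amino acid. All alpha genes shown encode Arg-Glu-Cys at these codons, and all beta genes shown encode Arg-Glu-Ile.

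How far the isotypes can be told apart matters for every value below, because short reads from near-identical genes can be assigned to the wrong copy. Isotypes differ most at the end of the coding sequence, so the last 60 coding bases of 4 beta tubulins are shown, with capitals at the positions where Tubb2a and Tubb2b differ.
Tubb2a: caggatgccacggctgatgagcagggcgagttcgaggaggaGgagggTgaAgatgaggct
Tubb2b: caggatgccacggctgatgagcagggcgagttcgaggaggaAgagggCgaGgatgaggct
Tubb4b: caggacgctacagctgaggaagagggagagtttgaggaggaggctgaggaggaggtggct
Tubb5: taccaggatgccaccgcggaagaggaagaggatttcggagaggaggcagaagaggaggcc
Tubb2a and Tubb2b differed at 3 of these 60 positions, whereas the last lines, for Tubb4b and Tubb5, are of genes without such a close partner among the members. Over the whole coding sequence Tuba1a and Tuba1b were 98.3% identical, Tuba1b and Tuba1c 97.9%, and Tubb2a and Tubb2b 96.5%. Tubb5 was 82.2% identical to Tubb4b and 80.2% to Tubb6. Of all 150-base windows along the transcripts, 54.7% for Tuba1a, 57.9% for Tuba1b and 46.7% for Tuba1c occurred unchanged in another gene. The share was 27.9% for Tubb2a, 20.1% for Tubb2b and 16.8% for Tubb4b, whose windows were shared with the pseudogene Tubb4b-ps1. It was 0.907% for Tubg1 and 0 for Tuba4a, Tubb5 and Tubb6. Single values of the Tuba1 trio and of the Tubb2 pair are therefore uncertain, and their sums on the deposited scaling are given beside them.

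The libraries held between 32.6 and 38.1 M reads at genes, worked back from the deposited FPKM (fragments per kilobase of exon, scaled for depth). The tubulins took between 0.252% and 0.442% of these reads in control libraries and between 0.386% and 0.405% in treated ones. The control libraries stood further apart from each other than the treated ones: the median SD of a gene on the log2 scale was 0.27 in controls and 0.07 in treated samples. The deposited values had been scaled between libraries so that the typical gene stayed level, while the 100 genes with most reads took between 33.0% and 36.1% of the reads in control libraries and between 19.1% and 19.4% in treated ones. Of 7 epithelial markers, 4 (Cdh1, Krt14, Krt7 and Cldn4) were under 1 FPKM in every library, and Epcam, Krt8 and Krt18 were present and fell, although 1 of these 3 was called higher with equal FPKM totals. Epcam was under 1 FPKM in every treated library and passed the filter only through the controls. Summed, the 7 lay between 1238 and 1472 FPKM in controls and between 617 and 651 FPKM in treated libraries. Of 7 leukocyte and endothelial markers, 5 were under 1 FPKM everywhere, with Itgam at 0 in all. On the deposited scaling limma called none, also at an unadjusted p under 0.05. With library size only and with equal FPKM totals, 1 of the 2 tested was called higher and 0 lower. The macrophage gene Cd68 measured 132, 444 and 77.0 FPKM in the control libraries and between 242 and 260 FPKM in treated libraries, and it made up most of that list's summed level, between 78.1 and 445 FPKM in controls and between 243 and 261 FPKM in treated libraries. Of 7 fibroblast and neuron markers, Dcn, Rbfox3 and Syp were under 1 FPKM everywhere, and Snap25 did not pass the filter. Of the 3 tested, Col1a1 and Col3a1 fell. Pdgfra, at 1.16 ± 0.142 and 1.21 ± 0.0467 FPKM, was not called (limma adjusted p = 0.747). With library size only and with equal FPKM totals, 1 of the 3 was called higher and 2 lower. The summed level lay between 205 and 1167 FPKM in controls and between 51.8 and 54.8 FPKM in treated libraries. The part of these differences in the tubulin results was not tested, and in bulk RNA fewer cells of a type and less RNA per cell cannot be told apart.

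The tubulins did not move as a block. A rise was called for 5 of the 10, Tuba4a, Tubb4b, Tubb6, Tubg1 and Tuba1c, and a fall for 3, Tubb2b, Tubb5 and Tuba1b, at a limma adjusted p under 0.05. Tuba1a and Tubb2a were not called. The rises were at least 2-fold on the log2(FPKM + 1) scale in 5 genes and the falls in 1, Tubb2b. Calls were common in this comparison: of the 11118 genes tested, 27.9% were called higher, 28.3% lower and 56.1% in either direction, so that the count of 8 called tubulins is read against that background. Genes called higher and at least 2-fold up made up 9.79% of all genes tested, and those called lower and at least 2-fold down 13.5%. All 10 genes passed the filter on low values, with between 345 and 131342 reads per gene and library. The median log2 fold change of the 10 was 0.61, beside -0.01 over all genes tested.

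**Figure D1:**
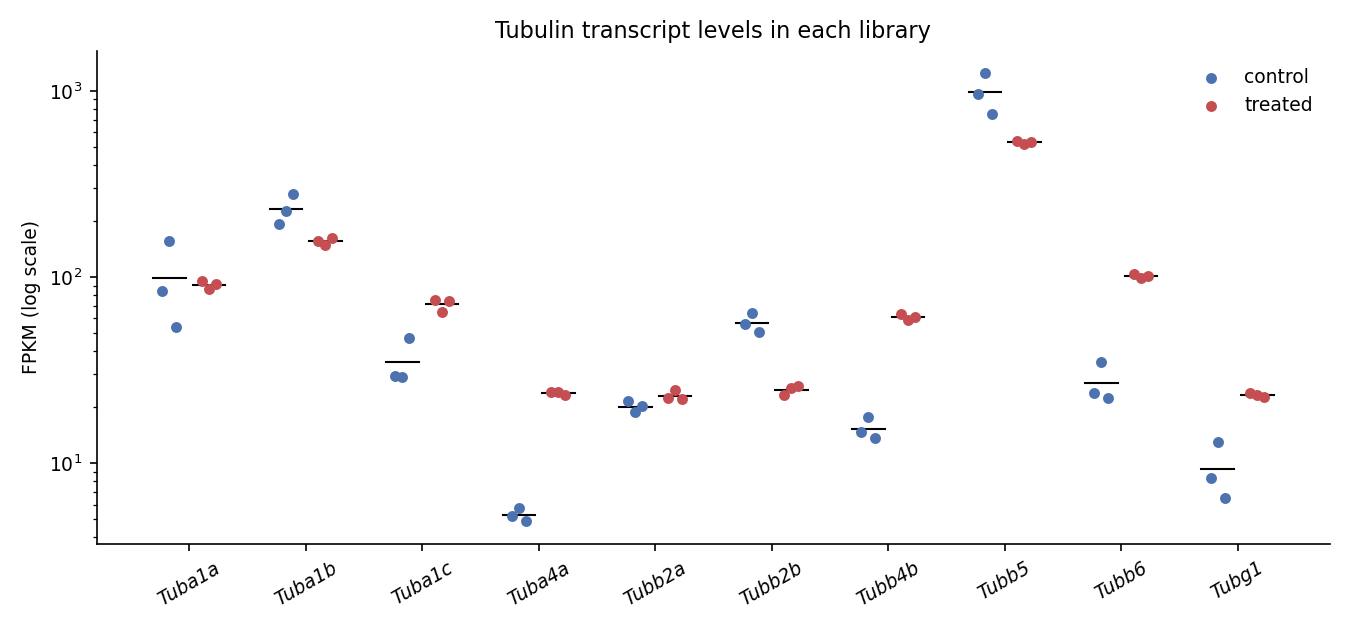
Level of each tubulin gene in each library in FPKM on a log axis, with 3 control (blue) and 3 treated (red) libraries per gene and a bar at the mean of each group. Treated libraries sit close together, and Tuba1a is the only gene whose treated points lie inside the range of the control points.

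Of the alpha tubulins, Tuba1b was the most abundant in both groups. Tuba1b (ENSMUSG00000023004, chr15:98931425-98934565, minus strand), a widely expressed isotype, measured 194, 226 and 279 FPKM in control 1, 2 and 3 and 156, 148 and 162 FPKM in treated 1, 2 and 3. All treated values lay under all control values. The means were 233 ± 42.8 and 155 ± 7.08 FPKM (SD, n = 3 each), 1.50-fold lower, and the log2 fold change of -0.56 ± 0.17 (SE) had a limma adjusted p = 0.0282. This fall held only on the deposited scaling: the log2 fold change was 0.18 with scaling by library size and 0.43 with equal FPKM totals, where limma called it higher (adjusted p = 0.0269). With quantile normalization it was 0.48 and was also called higher (limma adjusted p = 0.0253). It was also lost without any 1 of the treated libraries, with limma adjusted p = 0.0991 without treated 1, 0.111 without treated 2 and 0.0871 without treated 3.

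Tuba1a (ENSMUSG00000072235, chr15:98949837-98953703, minus strand), an isotype known for its high expression in developing neurons, measured 83.7, 157 and 54.2 FPKM in control 1, 2 and 3 and 95.5, 85.8 and 91.7 FPKM in treated 1, 2 and 3. Control 2 was the highest and control 3 the lowest of the 6, so the groups overlapped. The means were 98.3 ± 52.9 and 91.0 ± 4.87 FPKM (SD, n = 3 each), and the log2 fold change of 0.02 ± 0.37 (SE) was not called (limma adjusted p = 0.959). On other scalings its log2 fold change was higher, at 0.76 with library size only, 0.87 with a GC, length and level trend removed, 0.92 with quantile normalization and 1.01 with equal FPKM totals, and limma called none of these (adjusted p of at least 0.0654 over all alternatives).

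Tuba1c (ENSMUSG00000043091, chr15:99029891-99038110, plus strand), the neighbouring member of the trio, measured 29.5, 29.2 and 46.8 FPKM in control libraries and 75.6, 64.8 and 74.1 FPKM in treated ones. The lowest treated value lay above the highest control, which was control 3. The means were 35.2 ± 10.1 and 71.5 ± 5.84 FPKM (SD, n = 3 each), a 2.03-fold rise, with a log2 fold change of 1.03 ± 0.21 (SE) and a limma adjusted p = 0.00693. Summed, the Tuba1 trio gave 307, 412 and 380 FPKM in control 1, 2 and 3 and 327, 298 and 328 FPKM in treated 1, 2 and 3. These sums overlapped between the groups on the deposited scaling. There, the opposite calls of Tuba1b and Tuba1c lay within a total that did not separate control from treated libraries. With library size only, the log2 fold changes were 0.18 for Tuba1b, 0.76 for Tuba1a and 1.77 for Tuba1c. The trio was not summed on other scalings.

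Tuba4a (ENSMUSG00000026202, chr1:75214228-75219865, minus strand) had the largest log2 fold change of the 10 genes on the deposited scaling, where Tubb4b and Tubb6 followed closely, although both lay above it with quantile normalization and with the trend removed. It measured 5.22, 5.74 and 4.87 FPKM in control 1, 2 and 3 and 24.0, 24.0 and 23.3 FPKM in treated 1, 2 and 3. Values were tight in both groups and did not overlap. The means were 5.27 ± 0.442 and 23.8 ± 0.408 FPKM (SD, n = 3 each), a 4.51-fold rise, with a log2 fold change of 1.98 ± 0.10 (SE) and a limma adjusted p = 0.000157. Tuba4a shares no 150-base window with another gene, and Stk16, a kinase gene on the other strand that overlaps it in GENCODE M21, stood at 4.12 ± 1.05 and 4.47 ± 0.234 FPKM and was not called.

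Among the beta tubulins, Tubb5 was the most abundant of all members by far. Tubb5 (ENSMUSG00000001525, chr17:35833921-35838306, minus strand), the main beta isotype of most dividing cells, measured 965, 1245 and 754 FPKM in control 1, 2 and 3 and 537, 521 and 530 FPKM in treated 1, 2 and 3. The controls were spread and all lay above the treated libraries. The means were 988 ± 246 and 529 ± 7.99 FPKM (SD, n = 3 each), 1.87-fold lower, and the log2 fold change of -0.87 ± 0.21 (SE) had a limma adjusted p = 0.0148. Like that of Tuba1b, this fall depended on the scaling: the log2 fold change was -0.12 with library size only and 0.13 with equal FPKM totals, neither of them called. As a share of the reads at genes, Tubb5 took 0.264%, 0.348% and 0.180% in control libraries 1, 2 and 3 and 0.238%, 0.229% and 0.235% in treated 1, 2 and 3, which overlap. Leaving out control 1 ended the call as well (limma adjusted p = 0.0527), and so did leaving out treated 1 (0.0576), 2 (0.0586) or 3 (0.0596).

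Tubb4b (ENSMUSG00000036752, chr2:25222160-25224702, minus strand), a broadly expressed isotype that is also part of cilia, rose. It measured 14.7, 17.7 and 13.7 FPKM in control 1, 2 and 3 and 63.1, 58.7 and 60.7 FPKM in treated 1, 2 and 3. Every treated value lay far above the highest control. The means were 15.3 ± 2.07 and 60.8 ± 2.20 FPKM (SD, n = 3 each), a 3.96-fold rise, with a log2 fold change of 1.93 ± 0.13 (SE) and a limma adjusted p = 0.000253.

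Tubb6 (ENSMUSG00000001473, on chromosome 18), the most divergent beta isotype of this set relative to Tubb5, rose as well. It measured 24.0, 34.9 and 22.5 FPKM in control 1, 2 and 3 and 104, 99.2 and 101 FPKM in treated 1, 2 and 3. Control 2 was the highest control and still lay far under every treated library. The means were 27.1 ± 6.75 and 101 ± 2.21 FPKM (SD, n = 3 each), a 3.73-fold rise, with a log2 fold change of 1.89 ± 0.18 (SE) and a limma adjusted p = 0.00055.

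The neighbours Tubb2a and Tubb2b, isotypes best known from neurons, differed from each other. Tubb2b (ENSMUSG00000045136, chr13:34126748-34130466, minus strand) measured 56.2, 63.8 and 50.6 FPKM in control 1, 2 and 3 and 23.2, 25.4 and 26.0 FPKM in treated 1, 2 and 3. The groups lay well apart, with means of 56.9 ± 6.64 and 24.9 ± 1.46 FPKM (SD, n = 3 each), 2.29-fold lower, a log2 fold change of -1.16 ± 0.13 (SE) and a limma adjusted p = 0.00082. The call was lost with library size only (-0.43, adjusted p = 0.0539) and with equal FPKM totals (-0.18, adjusted p = 0.356). Tubb2a (ENSMUSG00000058672, chr13:34074274-34078007, minus strand) measured 21.5, 18.8 and 20.3 FPKM in control 1, 2 and 3 and 22.4, 24.7 and 22.2 FPKM in treated 1, 2 and 3. The groups did not overlap, but the gap was small and the log2 fold change of 0.19 ± 0.11 (SE) was not called (limma adjusted p = 0.185). It was called higher with library size only (0.90) and with equal FPKM totals (1.14). The summed Tubb2 pair gave 77.6, 82.6 and 70.9 FPKM in controls and 45.6, 50.1 and 48.2 FPKM in treated libraries. These sums did not overlap on the deposited scaling, and the pair was not summed on other scalings.

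Tubg1 (ENSMUSG00000035198, chr11:101119938-101126419, plus strand), the main gamma tubulin of dividing cells, rose. It measured 8.33, 13.0 and 6.50 FPKM in control 1, 2 and 3 and 23.8, 23.1 and 22.8 FPKM in treated 1, 2 and 3. The controls were spread, with control 2 the highest, and all lay under the treated libraries. The means were 9.28 ± 3.36 and 23.2 ± 0.532 FPKM (SD, n = 3 each), a 2.50-fold rise, with a log2 fold change of 1.29 ± 0.23 (SE) and a limma adjusted p = 0.00454. Counting groups that do not overlap, 6 of the 10 genes were higher and 3 lower in all treated libraries, where 33.6% and 34.1% of all genes tested were, 67.7% in either direction.

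Shares within a class do not depend on the scaling between libraries, since each is a ratio inside 1 library. In the alpha class, taken over 8 alpha genes, Tuba1b made up 62.1%, 54.0% and 72.5% of the summed FPKM in control libraries 1, 2 and 3 and 44.4%, 45.8% and 46.1% in treated 1, 2 and 3. The treated shares lay below every control share. Tuba1c made up 9.44%, 6.99% and 12.2% in controls and 21.5%, 20.1% and 21.1% in treated libraries, and Tuba4a 1.67%, 1.38% and 1.27% and then 6.83%, 7.45% and 6.64%. Both shares were higher in every treated library, while that of Tuba1a, 26.2 ± 11.8% and 26.6 ± 0.529% (SD, n = 3 each), overlapped.

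In the beta class, also of 8 genes, Tubb5 made up 89.2%, 90.0% and 87.4% of the summed FPKM in control libraries 1, 2 and 3 and 71.4%, 71.2% and 71.3% in treated 1, 2 and 3. Tubb6 held 2.21%, 2.52% and 2.61% in controls and 13.8%, 13.6% and 13.6% in treated libraries. Tubb4b held 1.35%, 1.28% and 1.59% in controls and 8.38%, 8.02% and 8.17% in treated libraries. These 3 shares were tight within each group and lay far apart between the groups. Tubb2a went from 1.90 ± 0.501% to 3.11 ± 0.226% and Tubb2b from 5.22 ± 0.623% to 3.35 ± 0.231% (SD, n = 3 each), without overlap. The ratio of Tubb5 to Tubb6 was 40.3, 35.7 and 33.5 in controls and 5.18, 5.25 and 5.25 in treated libraries, and that of Tubb5 to Tubb4b was 65.8, 70.5 and 55.0 and then 8.52, 8.88 and 8.73. Whatever factor scales a library, Tubb5 thus stood in a different proportion to both of these genes in the treated cells.

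**Figure D2:**
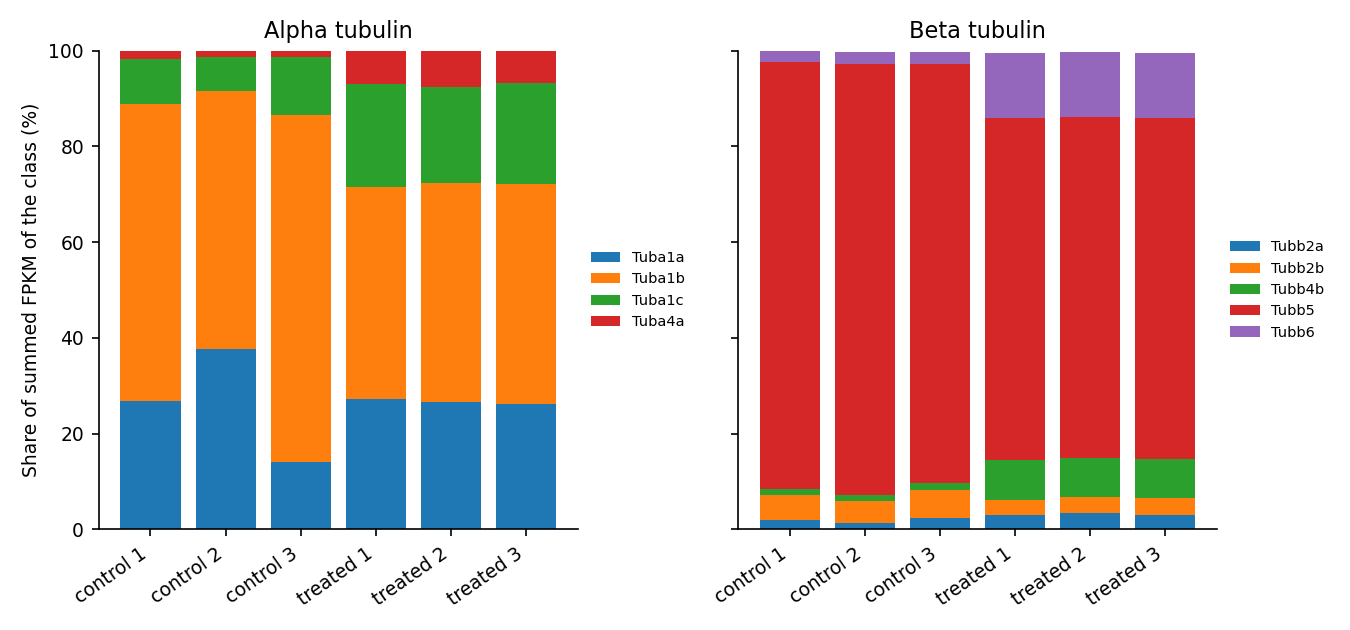
Stacked bars give the percent of the summed FPKM of the alpha class (left) and the beta class (right) that each gene held in each of the 6 libraries. In treated libraries the Tubb5 share is between 71.2% and 71.4%, under the 87.4% to 90.0% of controls, and the shares of Tubb4b, Tubb6, Tuba1c and Tuba4a are larger.

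On the deposited scaling, the class totals behaved differently from each other. Summed alpha tubulin was 312, 418 and 384 FPKM in control 1, 2 and 3 and 351, 323 and 351 FPKM in treated 1, 2 and 3, which overlap. Summed beta tubulin was 1082, 1383 and 864 FPKM in controls and 752, 732 and 743 FPKM in treated libraries, which do not. Whether such sums overlap between the groups depends on the scaling between libraries. The sums were not computed on other scalings, so this contrast holds for the deposited scaling only. The beta to alpha ratio was 3.47, 3.31 and 2.25 in controls and 2.14, 2.27 and 2.12 in treated libraries, where control 3 lay within the treated range.

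The order of the levels differed between the groups. In controls it ran Tubb5, Tuba1b, Tuba1a, Tubb2b, Tuba1c, Tubb6, Tubb2a, Tubb4b, Tubg1 and Tuba4a. The ranges of Tuba1a and Tubb2b overlapped there, as did those of Tuba1c and Tubb6. In treated libraries it ran Tubb5, Tuba1b, Tubb6, Tuba1a, Tuba1c, Tubb4b, Tubb2b, Tuba4a, Tubg1 and Tubb2a, and the last 4 could not be ordered because neighbouring ranges overlapped. Tubb6 went from rank 6 to rank 3 and Tubb4b from rank 8 to rank 6.

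The falls and rises are read against a trend with level that ran through all genes. With the tested genes cut by level into 10 bins of 1111 or 1112 genes, the bin with the highest levels held Tuba1a, Tuba1b, Tuba1c, Tubb5 and Tubb6 and had a median log2 fold change of -0.93. The next bin, with Tubb2a, Tubb2b and Tubb4b, had a median of -0.51, that of Tubg1 -0.27 and that of Tuba4a -0.08. Tubb5 (-0.87) and Tuba1b (-0.56) were thus no lower than the median of genes of like level, and Tubb2b (-1.16) was lower. The 5 rising genes were above that median, and so were the uncalled Tuba1a (0.02) and Tubb2a (0.19). With the trend of GC content, length and level removed in each library, Tubb2b stayed lower (-0.64), Tubb5 and Tuba1b stood at 0.26 and 0.43 and were not called, and Tuba1a stayed uncalled. Tubb2a was called higher (0.72).

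**Figure D3:**
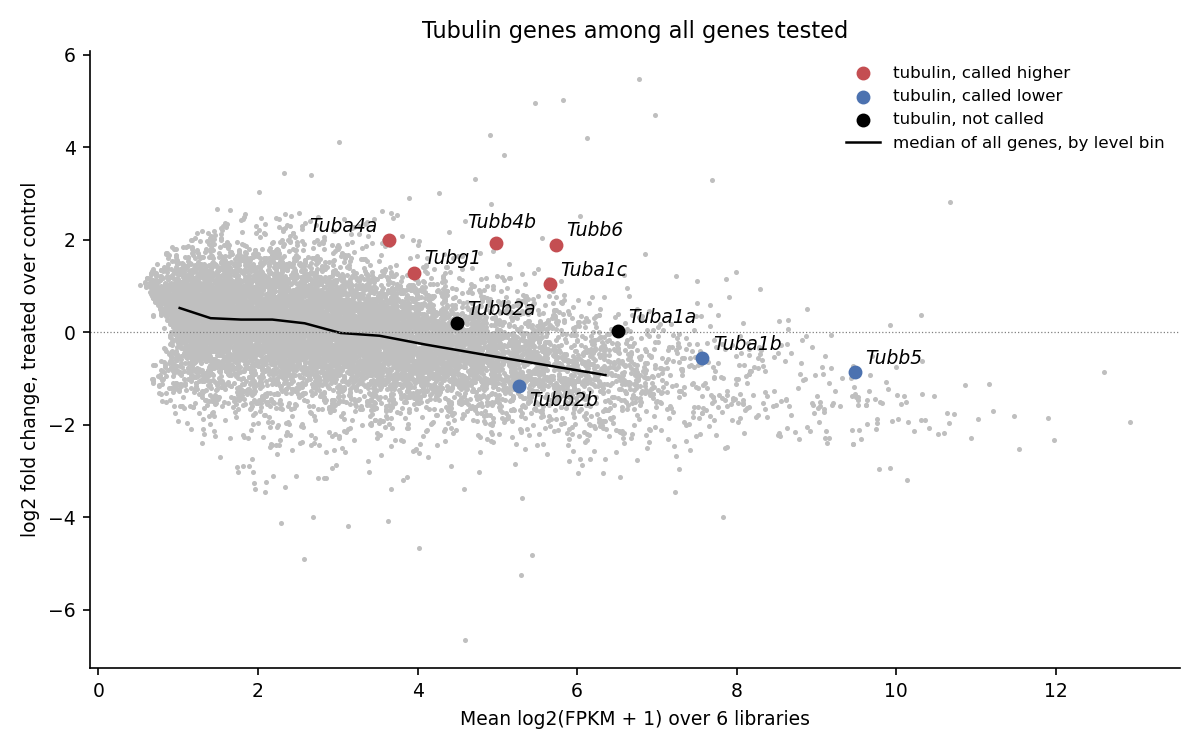
Each grey point is 1 of the 11118 genes tested, with its mean log2(FPKM + 1) over 6 libraries on the x axis and its log2 fold change, treated over control, on the y axis, and the black line joins the medians of 10 bins of genes by level. Tubb5 and Tuba1b lie above the line's last value of -0.93, and Tubb2b lies below it.

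Other scalings moved the reference point of all genes. Scaling by library size only put the median log2 fold change of all genes at 0.61 and made 85.2% of calls higher, and equal FPKM totals put it at 0.81 and made 91.6% higher, beside 49.7% on the deposited scaling. Relative to those medians, Tubb5 stood at -0.73 and -0.68 and Tubb2b at -1.04 and -0.99. Tuba1b stood at -0.43 and -0.38. Both scalings apply 1 factor to all genes of a library and so move the median too, which leaves these positions almost fixed beforehand. Settings that can change them gave other positions. Relative to the median, Tubb5 stood at 0.51 with quantile normalization and 0.27 with the trend removed, and Tuba1b at 0.45 and 0.44. Tubb2b stood at -0.61 and -0.63. Rises of Tuba4a, Tubb4b, Tubb6, Tubg1 and Tuba1c were called under all 16 alternatives run, with log2 fold changes between 1.94 and 2.89 for Tuba4a and between 0.92 and 2.02 for Tuba1c.

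**Figure D4:**
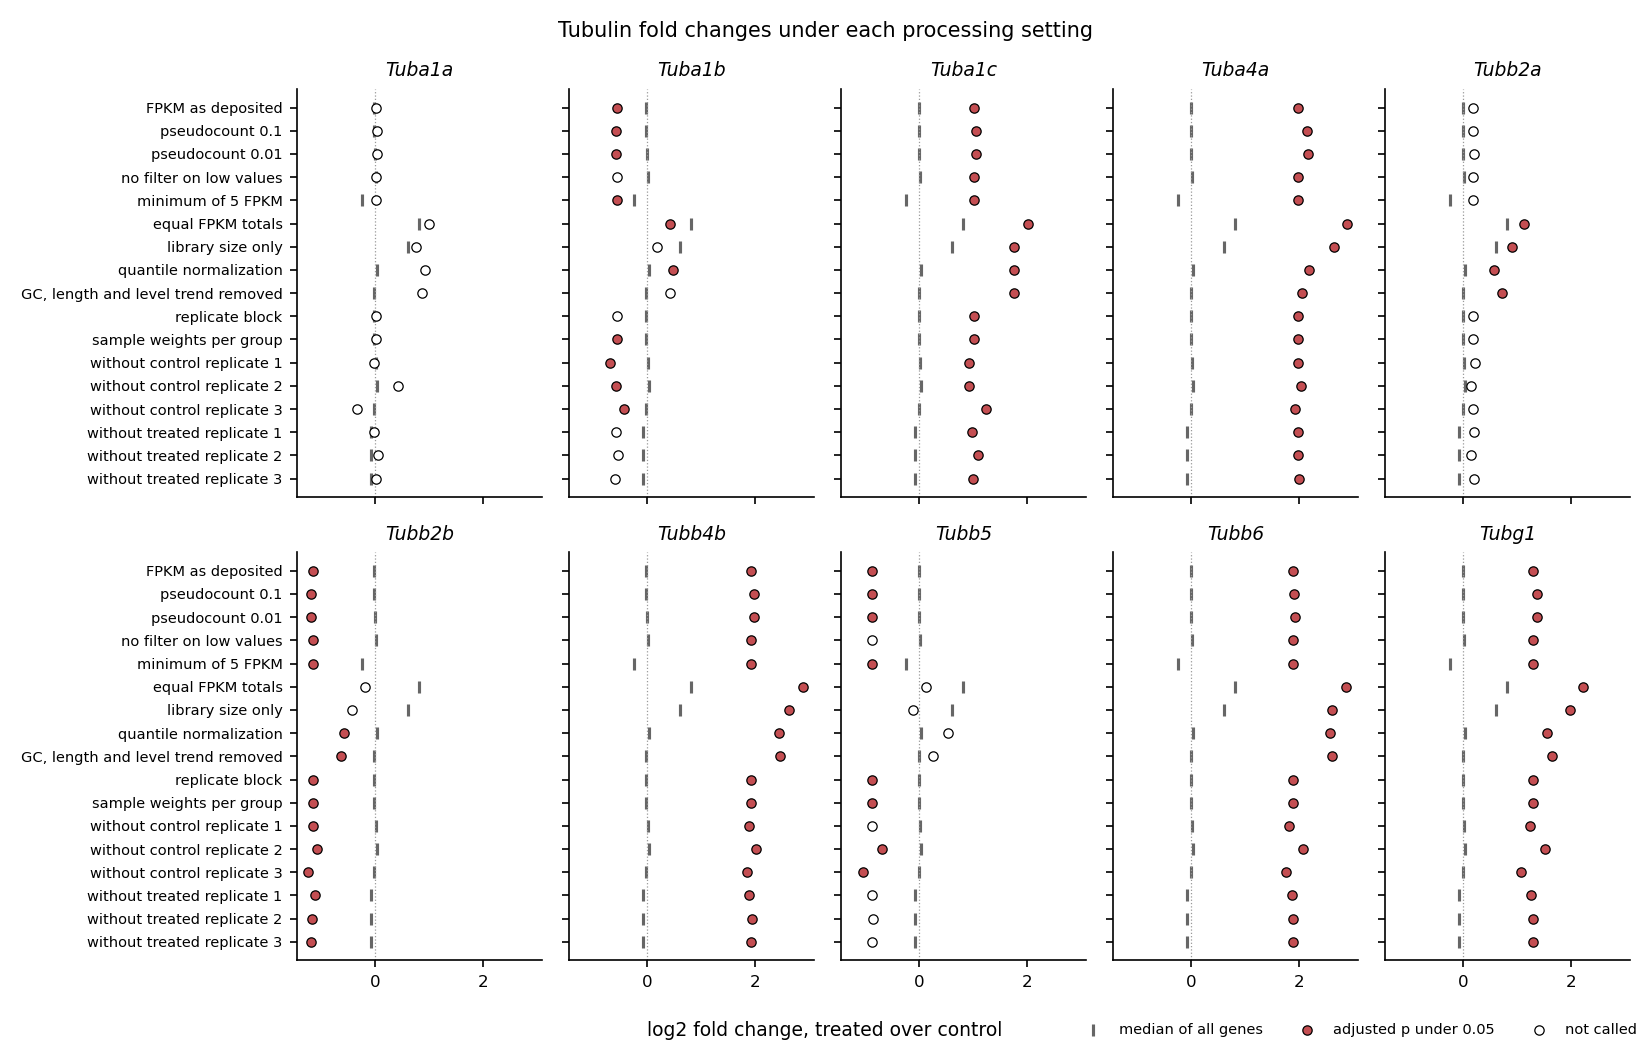
Log2 fold change, treated over control, of each tubulin gene (1 panel each) on the deposited scaling and under 16 alternatives, filled where the limma adjusted p is under 0.05, with a grey tick at the median of all genes. Tuba1c, Tuba4a, Tubb4b, Tubb6 and Tubg1 are filled and right of 0 in every line, whereas Tubb5 and Tuba1b cross 0 with the scaling.

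Other tubulin genes of the genome were low. Of 10, 3 passed the filter and 6 (Tuba3a, Tuba3b, Tuba8, Tubal3, Tubb1 and Tubg2) were under 1 FPKM in every library. Tubd1, the delta tubulin of centrioles, measured 0.710, 0.853 and 0.186 FPKM in control 1, 2 and 3 and 2.70, 2.54 and 2.16 FPKM in treated 1, 2 and 3. Its log2 fold change was 1.15 ± 0.18 (SE) with a limma adjusted p = 0.00299, on between 9 and 251 reads per library. Tubd1 passed the filter only through the treated libraries, where it was high, so its higher call is not independent of the filter. It was not tested when a treated library was left out. Tubb3, the neuronal beta isotype, measured 0.513, 0.675 and 1.01 FPKM in controls and 1.14, 1.28 and 1.61 FPKM in treated libraries. Its log2 fold change of 0.44 ± 0.14 (SE) was called (limma adjusted p = 0.0344) on between 30 and 133 reads per library. That call was lost in 10 of 15 alternatives, among them quantile normalization (0.04, limma adjusted p = 0.833), the trend removed (0.23, 0.182), no filter (0.112) and leaving out control 1 (0.0962), control 2 (0.0629), treated 1 (0.0813), treated 2 (0.114) or treated 3 (0.16). Tubb4a stood at 1.19 ± 0.626 and 1.49 ± 0.251 FPKM (SD, n = 3 each) and was not called, but limma called it higher with library size only (0.64, adjusted p = 0.033), equal FPKM totals (0.80, 0.0124) and without control 2 (0.44, 0.0401).

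Upstream sequence was compared between the most abundant beta gene, which was lower on the deposited scaling, and a beta gene that rose. RefSeq gives a promoter window for 7 of the 10 genes, and the 250 bases before the start of Tubb4b (chr2:25224703-25224952, minus strand) and Tubb5 (chr17:35838302-35838551, minus strand) are printed from GRCm38.p6, 5′ to 3′. Capitals mark CCAAT (the CCAAT box), TATAAA (the TATA box) and GGGCGG (the GC box), searched on both strands.
Tubb4b: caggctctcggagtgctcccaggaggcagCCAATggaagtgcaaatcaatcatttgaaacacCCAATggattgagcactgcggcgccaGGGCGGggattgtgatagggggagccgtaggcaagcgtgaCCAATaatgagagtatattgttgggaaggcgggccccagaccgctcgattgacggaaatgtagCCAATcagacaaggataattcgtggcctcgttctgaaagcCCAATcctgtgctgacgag
Tubb5: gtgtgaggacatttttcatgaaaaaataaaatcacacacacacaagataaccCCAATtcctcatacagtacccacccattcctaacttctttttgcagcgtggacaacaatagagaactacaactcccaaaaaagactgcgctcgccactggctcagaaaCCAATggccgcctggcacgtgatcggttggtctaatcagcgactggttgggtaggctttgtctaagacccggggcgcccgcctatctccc
The Tubb4b window held 5 CCAAT matches and 1 GGGCGG match, and the Tubb5 window held 2 CCAAT matches. At least 1 CCAAT was found in 33.8% of 32851 promoter windows of this length, at least 5 in 0.213%, and GGGCGG in 32.7%. The cut of 5 was taken from Tubb4b, the highest count of the 7 windows, so the 0.213% is no test of it. Other motifs were also searched and are not shown. Tuba1c, which rose, had 1 CCAAT match in its window. Tuba4a, which also rose, had none and held 2 GGGCGG matches, so these 3 rising genes did not all hold the same run of letters in this window. Tuba1b, called lower on the deposited scaling, likewise had 0 CCAAT and 2 GGGCGG matches. Of the uncalled genes, Tuba1a had 1 CCAAT and 1 GGGCGG match, and Tubb2a 0 and 2.

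Genes of tubulin mRNA autoregulation moved in both directions: of 12, 6 were called higher and 2 lower, with a median log2 fold change of 0.44. Ttc5, which reads the nascent chain, measured 16.8, 13.5 and 21.6 FPKM in control 1, 2 and 3 and 8.92, 8.57 and 8.80 FPKM in treated 1, 2 and 3. All treated values lay below the controls, and it fell with a log2 fold change of -0.88 ± 0.17 (SE) and a limma adjusted p = 0.00648, a call lost with library size only (-0.19) and turned to 0.04 with equal FPKM totals. Cnot11, the CCR4-NOT subunit that links to this pathway, rose 2.03-fold from 4.13 ± 0.682 to 8.36 ± 0.326 FPKM (SD, n = 3 each; limma adjusted p = 0.00225). Cnot6, a deadenylase of the same complex, rose 2.49-fold from 8.55 ± 1.28 to 21.3 ± 0.836 FPKM (limma adjusted p = 0.000764). Cnot9, Cnot6l, Cnot7 and Cnot1 were also called higher and Cnot10 lower, and the adapter Scaper, at 5.89 ± 1.88 and 4.88 ± 0.265 FPKM, was not called. With library size only, 9 of the 12 were called higher by limma and 0 lower, also 0 lower at an unadjusted p under 0.05. Of all genes tested, 27.9% were called higher and 28.3% lower on the deposited scaling. With library size only, 6308 of 11342 were called higher and 1093 lower. Counts of this list and of those below are read against these shares.

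The machinery that folds tubulin was mostly lower on the deposited scaling, where 27.9% of all genes tested were called higher and 28.3% lower. Of 8 TRiC subunits, 6 were called lower and none higher (median log2 fold change -1.04), and of 6 prefoldin subunits, 5 were called lower and none higher (median -0.73). At an unadjusted limma p under 0.05 the higher count was also 0 in both lists. Cct5, a TRiC subunit, measured 415 ± 70.1 FPKM in controls and 148 ± 6.73 FPKM in treated libraries (log2 fold change -1.47 ± 0.16, limma adjusted p = 0.000859), and Pfdn5 fell from 175 ± 15.7 to 64.1 ± 6.58 FPKM (log2 fold change -1.43 ± 0.14, limma adjusted p = 0.000544). With library size only, 3 TRiC subunits were called lower and 1 higher, and 1 prefoldin subunit lower. With equal FPKM totals, 2 TRiC subunits were called in each direction, and 2 prefoldin subunits higher and 1 lower. With quantile normalization the TRiC counts turned to 2 higher and 0 lower (2 lower at an unadjusted p under 0.05), and limma no longer called Cct5 (-0.38, adjusted p = 0.0684). With the trend removed, TRiC had 0 called higher and 3 lower (median -0.42), 0 and 4 at an unadjusted limma p under 0.05. Prefoldin had 1 higher and 2 lower, and Cct5 was called lower (-0.62, limma adjusted p = 0.0296). On the deposited scaling, the bin of all genes with the highest levels had a median of -0.93, the next -0.51. Of 8 folding cofactors 2 fell and 2 rose: Tbca, which holds free beta tubulin, went from 252 ± 32.3 to 93.9 ± 9.80 FPKM (log2 fold change -1.41 ± 0.15, limma adjusted p = 0.000808), Tbcb was also called lower, and Pdcl3 and Tbcel were called higher. The call of Tbca was lost with equal FPKM totals (-0.42, limma adjusted p = 0.0553), quantile normalization (-0.38, 0.0698) and the trend removed (-0.22, 0.386).

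Around gamma tubulin, the ring complex and its recruiters had 5 of 11 tested genes called higher by limma and none lower, with 6 and 0 at an unadjusted p under 0.05 (median log2 fold change 0.39). Tubgcp3, a subunit of the complex, measured 1.22, 1.19 and 1.21 FPKM in controls and 2.88, 2.77 and 3.08 FPKM in treated libraries. It rose 2.42-fold with a log2 fold change of 0.83 ± 0.09 (SE) and a limma adjusted p = 0.00071. Nedd1, which targets the complex to centrosomes and spindles, rose 2.47-fold from 3.01 ± 0.778 to 7.42 ± 0.0910 FPKM (limma adjusted p = 0.00233). Cep192, Cdk5rap2 and Tubgcp5 were called higher too, while Tubgcp2, at 9.72 ± 0.563 and 9.65 ± 0.326 FPKM, was not called. Tubgcp5 measured 0.844, 0.950 and 0.616 FPKM in controls and passed the filter only through the treated libraries, where it was high. Its higher call, 1 of the 5, is therefore not independent of the filter. With the trend removed, 4 genes of this list were called higher and 2 lower (median 0.01), and with library size only 10 of 12 were called higher. Over all genes tested, 27.9% were called higher on the deposited scaling, and 6308 of 11342 with library size only.

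Proteins that bind or modify the finished polymer gave mixed counts. Of 8 tested stabilising and lattice proteins 3 were called higher and 1 lower (median log2 fold change 0.28). Map1a measured 3.07, 3.79 and 2.69 FPKM in controls and 15.4, 14.4 and 13.6 FPKM in treated libraries, a 4.54-fold rise with a log2 fold change of 1.89 ± 0.13 (SE) and a limma adjusted p = 0.000266. Map4, the broadly expressed stabiliser, fell from 31.4 ± 2.29 to 19.4 ± 0.388 FPKM (log2 fold change -0.67 ± 0.10, limma adjusted p = 0.00265), but stood at 0.05 with library size only and 0.29 with equal FPKM totals. Of 12 tested tubulin modifying enzymes 5 were called higher by limma and none lower, with 5 and 2 at an unadjusted p under 0.05 (median 0.25), among them Atat1, which acetylates alpha tubulin inside the microtubule, and Vash2, which removes its final tyrosine and rose 2.89-fold from 1.32 ± 0.264 to 3.81 ± 0.0930 FPKM (limma adjusted p = 0.000764). Of 12 plus end and polymerising factors 4 were called higher by limma and none lower, with 4 and 2 at an unadjusted p under 0.05 (median 0.21), with Clasp1 from 1.80 ± 0.213 to 3.20 ± 0.120 FPKM (limma adjusted p = 0.00367), a call lost with the trend removed (0.22, 0.0757). These counts moved with the processing: with the trend removed, 3 modifying enzymes were called higher and 3 lower, and 0 plus end factors higher (1 at an unadjusted limma p under 0.05) and 2 lower. With quantile normalization, 3 modifying enzymes were called higher and 1 lower, and 2 plus end factors higher. With library size only, 10 modifying enzymes and 9 plus end factors were called higher, where 6308 of all 11342 genes tested were. On the deposited scaling, 27.9% of all genes tested were called higher and 28.3% lower.

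Severing factors, motors and spindle genes were split on the deposited scaling, where 27.9% of all genes tested were called higher and 28.3% lower. Of 8 tested destabilising and severing factors 2 were called higher and 2 lower (median log2 fold change -0.04). Fignl1 measured 0.390, 0.489 and 0 FPKM in controls (59, 75 and 0 reads) and 3.32, 3.38 and 3.38 FPKM in treated libraries and was called higher (log2 fold change 1.78 ± 0.16, limma adjusted p = 0.000484). Fignl1 passed the filter only through the treated libraries, where it was high, so its higher call is not independent of the filter. It was not tested when a treated library was left out. Katna1, the catalytic subunit of the severing enzyme katanin, was called lower, from 25.2 ± 4.01 to 14.2 ± 1.24 FPKM, but stood at 0.18 with equal FPKM totals. Of 14 tested motor genes 3 were called higher and 3 lower (median -0.11). Dync1li2, a dynein light intermediate chain, rose from 6.15 ± 1.25 to 11.3 ± 0.644 FPKM, and Dctn2, a dynactin subunit, fell from 47.9 ± 7.50 to 25.7 ± 0.138 FPKM, with 0.11 on the log2 scale under equal FPKM totals. Of 13 tested spindle assembly genes 2 were called higher and 2 lower (median -0.06): Haus2, of the augmin complex that branches spindle microtubules, rose from 2.38 ± 1.14 to 8.61 ± 0.502 FPKM (limma adjusted p = 0.00382), and the mitotic kinase Aurka fell from 58.4 ± 9.61 to 28.1 ± 1.41 FPKM (limma adjusted p = 0.00196), a call lost with library size only (-0.29, adjusted p = 0.0557) and with equal FPKM totals (-0.04, adjusted p = 0.752). With library size only, limma called no gene of these 3 lists lower, and 1, Aurka, had an unadjusted p under 0.05 in that direction. Over all genes, 1093 of 11342 were called lower on that scaling.

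**Figure D5:**
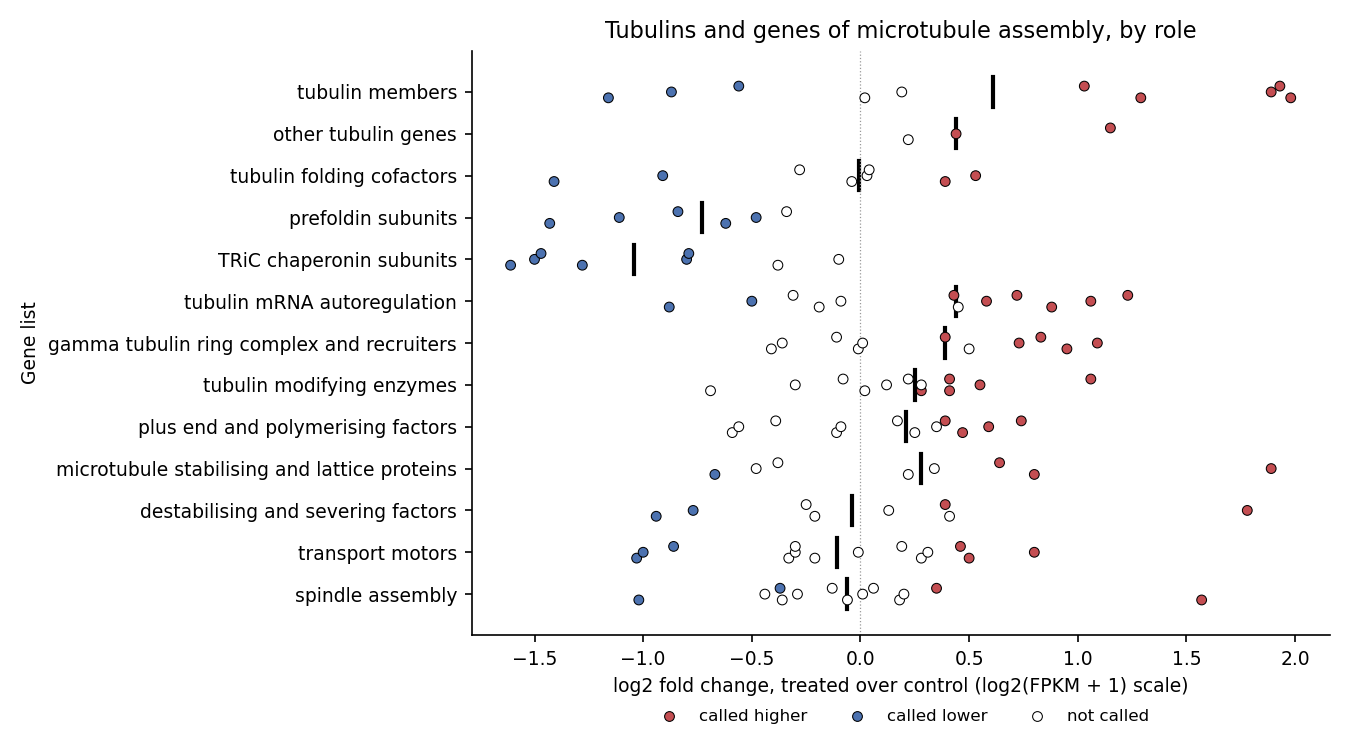
Log2 fold change, treated over control, of the tubulin members, the other tubulins and 11 lists of microtubule genes, with 1 point per gene coloured by its limma call and a bar at the median of each list. The tubulin points run from -1.16 to 1.98, and the TRiC and prefoldin points all lie left of 0.

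The genes whose pattern over the 6 libraries was nearest to a tubulin were found by Euclidean distance of centred log2(FPKM + 1) values, computed over 6 libraries of 2 groups. For Tuba1b they were Arsb, Ube2m, Hadha, Zc4h2 and Lhfp, at distances between 0.12 and 0.16. For Tubb5 they were Tle2, Parp6, Golt1b, Supt3 and the pseudogene Gpx4-ps2, between 0.11 and 0.16. For Tubg1, Ncoa6, Zrsr1, E2f8 and Arid2 are given, between 0.10 and 0.18. None of these is a tubulin, since tubulins were left out of the search. Genes without a symbol and genes with Gm-number or Rik symbols were left out too, so nearer genes among those were not looked for.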

How the data were processed

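Messenger RNA of 3 control and 3 treated samples of 4T1 cells was measured, and groups were taken from the treatment label. Libraries were made from 3 µg of RNA by poly-T capture, random priming, a size cut at 150 to 200 bp and PCR, and were read as 150 bp pairs, per the labels' protocols. Each deposited table lists FPKM for 56748 mouse genes under Ensembl identifiers, per the file headers. Which aligner, counter, build, annotation and strand setting made them is not given in the sources used here. Symbols, coordinates and coding sequences came from GENCODE M21 (GRCm38), which named 52073 of the identifiers and may not be the authors' annotation. Promoter windows came from RefSeq (GRCm38.p6).

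Depth was worked back from the steps between low FPKM values and the exon lengths. Below 200 reads, 92.3% to 93.4% of values per library fell within 0.02 of a whole read. Between 32.6 and 38.1 M reads at genes were recovered per library. The reads are PCR copies without molecular identifiers, so their numbers bear on counting error only. Median-of-ratios factors of the deposited FPKM were 1.01 in every library, so the values had been scaled before deposit.

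Differences were tested on log2(FPKM + 1) with limma 3.58.1 (R 4.3.3; trended prior variance) over the 11118 genes that reached 1 FPKM in 3 or more libraries. Group was the only term, and Benjamini-Hochberg adjustment covered all genes tested. The log2(FPKM + 1) scale understates changes of low genes, so folds between mean FPKM are given too. The script was tested on simulated data with the same SD in both groups. That simulation did not cover the unequal spread of these libraries, with a median SD of 0.27 in controls and 0.07 in treated samples. The alternatives were pseudocounts of 0.1 and 0.01, no filter, a minimum of 5 FPKM, library size only, equal FPKM totals, quantile normalization, removal of a GC, length and level trend (mgcv 1.9.3), a replicate block, group weights and leaving out each library.

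The members and lists were chosen with earlier results of these data known. The rule for named genes took all members, every other tubulin past the filter, and the 5 searched genes nearest to Tuba1b, Tubb5 and Tubg1. It also took the called gene with the smallest p in each direction of each list. It let other called genes be named where a list held 5 or fewer in a direction, and those named were picked after their values were seen. Of those nearest to Tubg1, 1 is not reported here. Scaper, Tubgcp2 and the marker genes without a call were named after their values were seen, and so were Cnot9, Cnot6l, Cnot7, Cnot1 and Cnot11, of a list with 6 called higher.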

Additional observations from a re-analysis of the deposited data

How the results depend on the processing

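The 5 rises of tubulin genes were called under all 16 alternatives, and the falls were not. Tubulins called lower by limma numbered 3 on the deposited scaling, 1 without the filter, 1 with quantile normalization, 1 with the GC, length and level trend removed, 0 with library size only and 0 with equal FPKM totals (1 and 0 at an unadjusted p under 0.05), and between 1 and 3 when a library was left out. Tuba1b turned to 0.43 with equal FPKM totals, 0.18 with library size only, 0.48 with quantile normalization and 0.43 with the trend removed, called higher with equal totals and with quantile normalization, and Tubb5 to 0.13, 0.54 and 0.26 with equal totals, quantile normalization and the trend removed. Tuba1a, not called, reached 1.01 with equal totals and ran from -0.33 to 0.43 over left-out libraries, with -0.02 without control 1, -0.33 without control 3 and -0.01 without treated 1. Tubb4a, not called on the deposited scaling but higher under 3 alternatives, turned to -0.14 with quantile normalization and -0.02 with the trend removed. With equal FPKM totals Ttc5 turned to 0.04, Map4 to 0.29, Katna1 to 0.18 and Dctn2 to 0.11, and Map4 to 0.05 with library size only. The causes were not tested. Over all genes, 3099 were called higher and 3141 lower. The higher count was 1385 at a minimum of 5 FPKM, where fewer genes are tested, 7641 with equal FPKM totals and 6308 with library size only. The lower count was 699 with equal totals and 1093 with library size only. Leaving out a library gave between 1542 and 3637 higher and between 2011 and 3585 lower, with the lowest counts without a treated library. The group weights were chosen after seeing the data and changed no tubulin member's call, but ended that of Tubb3 (adjusted p = 0.117). Same-numbered control and treated libraries deviated with correlations of -0.054, -0.111 and -0.140, no library correlated best with its own number, and the numbers were not read as pairs. With the replicate number as a block, 2618 genes were called higher and 2669 lower, and of the members Tuba1b lost its call (adjusted p = 0.0673). A planned count test on recovered reads was not run, because the deposited unit is FPKM. Depth was no limit for the members, with at least 345 reads each in every library. Over left-out libraries, the mean Tuba1b share of its class ran from 58.0% to 67.3% in controls and from 45.1% to 46.0% in treated libraries, and that of Tubb5 from 88.3% to 89.6% and from 71.3% to 71.4%.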
